A study of Mus musculus with 16 samples.

Results

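The genes described here make, break down and sense prostaglandins: the cyclooxygenases Ptgs1 and Ptgs2, the prostaglandin E2 synthases Ptges, Ptges2 and Ptges3, the prostaglandin D2 and thromboxane synthases Hpgds and Tbxas1, the degrading dehydrogenase Hpgd, and the prostaglandin E2 receptors Ptger2 and Ptger4. They were taken by symbol from the table of gene counts, 10 of its 47069 genes, and all 10 passed the filter on low counts, which left 13211 genes. The genes were chosen by a rule that used their measured counts in the contrast described below, GSI against DMSO, so their values are given as a description, without p-values.

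The cells were macrophages derived from mouse bone marrow (BMMs; strain C57BL/6, age 8 to 10 weeks), grown in medium conditioned by L929 cells and primed overnight with IFNγ (10 ng/mL). All the cells were then activated for 1 hr with Salmonella LPS (100 ng/mL) and immune complexes (ICs) of ovalbumin with rabbit IgG, in cultures that held either DAPT (25 μM), a gamma-secretase inhibitor (GSI), or its solvent DMSO (0.01%). The exposure to GSI or DMSO began ahead of the activation, overnight by the study's methods, though its other experiments are also described with a pretreatment of minutes, and the labels give no time for these libraries. GSI blocks the cleavage that releases the active part of Notch receptors, and it blocks the cleavage of other gamma-secretase substrates as well. Each group had 2 replicates, each deposited as 4 columns that were summed, and the 4 libraries held 42694655 and 56932059 counts (DMSO replicates 1 and 2) and 48483661 and 49511733 counts (GSI replicates 1 and 2). The labels do not say whether the replicates were separate cultures or mice, so the spread between them may be technical, and with 2 libraries a standard deviation (SD) rests on a single difference. No library without LPS/ICs was analysed here, so activation itself was not compared.

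Prostaglandins start from arachidonic acid that phospholipases cut from membranes. A cyclooxygenase converts it to prostaglandin H2, and terminal synthases turn that into prostaglandin E2 (PGE2), prostaglandin D2 or thromboxane. PGE2 acts through 4 EP receptors, of which EP2 and EP4 raise cyclic AMP (cAMP), and in macrophages it is known to restrain TNFα and IL-12 and to favor IL-10. Transporters carry PGE2 across the membrane, and Hpgd oxidizes it to an inactive product.

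The promoters of the genes that differed most between the groups, and that of Ptgs2, the most abundant, are shown first, so that the letters around their transcription starts can be set beside the levels that follow. Each runs from 250 bases before to 50 bases after the RefSeq transcription start (GRCm38.p6), 5′ to 3′ on the strand of the gene. Ptges lies at chr2:30903248-30903547 on the minus strand, inside the longer span that GENCODE gives this gene, Hpgd at chr8:56294302-56294601, Ptgs1 at chr2:36230176-36230475 and Ptgs2 at chr1:150099781-150100080, all 3 on the plus strand. Capitals mark matches on either strand to the TATA box TATAAA, the RBPJ core TGGGAA, the cAMP response element half-site TGACG or the GC box GGGCGG.
Ptges: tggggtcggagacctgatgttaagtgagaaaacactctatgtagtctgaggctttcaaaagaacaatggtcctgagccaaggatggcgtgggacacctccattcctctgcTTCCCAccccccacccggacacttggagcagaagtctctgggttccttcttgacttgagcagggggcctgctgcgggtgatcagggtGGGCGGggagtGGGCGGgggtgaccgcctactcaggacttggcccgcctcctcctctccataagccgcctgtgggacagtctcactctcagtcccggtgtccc
Hpgd: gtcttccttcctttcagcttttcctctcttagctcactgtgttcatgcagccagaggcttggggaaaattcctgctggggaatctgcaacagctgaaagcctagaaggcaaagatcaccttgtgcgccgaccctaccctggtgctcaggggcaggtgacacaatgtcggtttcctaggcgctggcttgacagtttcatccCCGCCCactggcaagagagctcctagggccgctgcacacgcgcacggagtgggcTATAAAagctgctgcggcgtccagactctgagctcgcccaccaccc
Ptgs1: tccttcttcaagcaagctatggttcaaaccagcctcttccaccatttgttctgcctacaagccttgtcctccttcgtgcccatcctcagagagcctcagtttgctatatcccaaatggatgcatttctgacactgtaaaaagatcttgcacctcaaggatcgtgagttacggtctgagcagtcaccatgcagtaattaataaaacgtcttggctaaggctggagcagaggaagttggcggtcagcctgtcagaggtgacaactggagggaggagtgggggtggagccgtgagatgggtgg
Ptgs2: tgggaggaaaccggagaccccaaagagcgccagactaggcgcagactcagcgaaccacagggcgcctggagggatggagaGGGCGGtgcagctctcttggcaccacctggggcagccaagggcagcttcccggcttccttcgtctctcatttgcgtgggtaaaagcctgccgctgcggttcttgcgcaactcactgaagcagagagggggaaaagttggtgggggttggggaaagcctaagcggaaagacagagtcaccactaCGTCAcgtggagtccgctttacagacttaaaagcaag

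The Ptges window held 1 RBPJ core, which begins 140 bases before the start on the opposite strand, and 2 GC boxes that begin 53 and 42 bases before it. RBPJ is the DNA-binding partner of cleaved Notch. The Hpgd window held a GC box that begins 50 bases before the start and a TATA box that begins 5 bases after it. GENCODE places the start of Hpgd further downstream, at 56294585, so that this TATA box lies before the GENCODE start. The Ptgs2 window held a GC box and a cAMP response element half-site, and the Ptgs1 window held no match to these letters. Of the 10 genes, 2 had an RBPJ core (Ptges and Ptges2), against 25.6% of all 32851 RefSeq promoters searched in the same way. A GC box stood in 5 of 10 (35.7% of all promoters), a TATA box in 2 of 10 (13.6%) and the half-site in 2 of 10 (20.8%). The kB site was found in 1 of 10, Ptges3 (8.46%), and the Egr1 motif GCGNGGGCG in 0 of 10 (5.55%). The GC box letters can overlap the Egr1 motif. A match describes the letters only, and its absence from this window says nothing about the factor.

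Levels are given as counts per 1000000 library counts (CPM, scaled with TMM normalization), differences as the log2 fold change of GSI against DMSO with its standard error (SE) from edgeR. A gene was called different at a false discovery rate (FDR) under 0.05 over all 13211 genes. By that rule 6 of the 10 genes were called, and so were 40.8% of all genes tested. Ptgs1, Tbxas1 and Hpgd were lower with GSI, and Ptges, Ptges2 and Ptges3 were higher, while 21.9% of all genes were called lower and 19.0% higher. The 2 groups did not overlap in 7 of the 10 genes, against 70.6% of all genes. With an absolute log2 fold change above 1.5 required as well, Ptges and Hpgd were called, and so were 2.91% of all genes. Nothing is read from these counts, since the contrast itself led to the choice of the genes. Their median log2 fold change was -0.05, and that of all genes was 0.01.

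**Figure D1:**
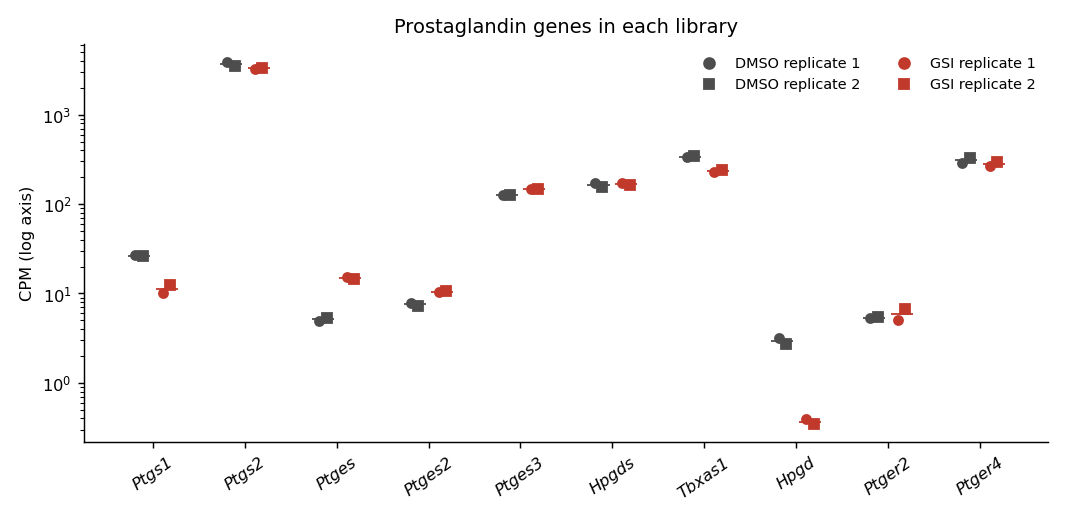
The level of each prostaglandin gene in every library, in CPM on a log axis. Circles and squares are replicates 1 and 2 of DMSO (grey) and GSI (red), and a short line marks each group mean. Hpgd and Ptgs1 sit lower and Ptges higher in both GSI libraries, and Ptgs2 lies above every other gene in all libraries.

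Ptgs2 (ENSMUSG00000032487, chr1:150100031-150108227, plus strand) encodes COX-2, the cyclooxygenase that inflammatory stimuli induce. It was measured at 3873 and 3531 CPM with DMSO and at 3214 and 3368 CPM with GSI. The GSI libraries were lower without overlap, by a log2 fold change of -0.17 (SE 0.0771), and the gene was not called. Its call depended on the setting: it was called when GSI replicate 2 was left out, with the replicate number as a block, and with the 16 columns kept apart, a fit that counts runs of 1 library as replicates. Per kilobase of exon, Ptgs2 ranked 44 and 50 among all tested genes with DMSO and 63 and 57 with GSI.

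Ptgs1 (ENSMUSG00000047250, chr2:36230426-36252272, plus strand) encodes COX-1, the cyclooxygenase that many resting cells hold. It stood at 26.8 and 26.1 CPM with DMSO and at 10.0 and 12.6 CPM with GSI. The means were 26.4 ± 0.475 and 11.3 ± 1.83 CPM (SD, n = 2), which is 2.34-fold lower with GSI and a log2 fold change of -1.22 (SE 0.0995). Leaving out any 1 library kept the log2 fold change between -1.40 and -1.07. Of all genes tested, 3.11% had a lower value.

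Transcripts of the cyclooxygenases were nearly all Ptgs2, as counted per kilobase. Ptgs1 made up 0.809% and 0.864% of the pair with DMSO and 0.366% and 0.439% with GSI. Both GSI libraries were below both DMSO libraries, and in each of them Ptgs1 was a minor part.

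Ptges (ENSMUSG00000050737, chr2:30889471-30929863, minus strand) encodes the inducible microsomal PGE2 synthase that works with COX-2. Its level was 4.97 and 5.38 CPM with DMSO and 15.2 and 14.5 CPM with GSI. Both GSI libraries were well above both DMSO libraries, by 2.86-fold, with a log2 fold change of 1.52 (SE 0.105) that lay between 1.47 and 1.58 on leaving out any single library. These levels rest on 214 and 305 counts with DMSO and on 734 and 718 counts with GSI.

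Ptges2 (ENSMUSG00000026820, chr2:32395896-32405772, plus strand), the second membrane-associated synthase, was at 7.81 and 7.28 CPM with DMSO and 10.3 and 10.6 CPM with GSI. It was 1.39-fold higher with GSI, without overlap, at a log2 fold change of 0.47 (SE 0.104). Ptges3 (ENSMUSG00000071072, chr10:128058954-128077272, plus strand) encodes the cytosolic synthase, a protein better known as the HSP90 co-chaperone p23. Its libraries held 128 and 127 CPM with DMSO and 149 and 147 CPM with GSI. The log2 fold change was 0.22 (SE 0.0681), the smallest of the 6 that were called, and the call was lost without DMSO replicate 1 and without DMSO replicate 2.

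The mix of PGE2 synthase transcripts differed between the groups. Per kilobase, Ptges was 2.10% and 2.27% of the 3 synthases with DMSO and 5.30% and 5.12% with GSI. Ptges2 made up 2.56% and 2.39% under DMSO, and its share under GSI was 2.79% and 2.90%, while Ptges3 was 95.3% in both DMSO libraries and 91.9% and 92.0% with GSI. The groups did not overlap in any of these shares. With DMSO, Ptges was the scarcest of the synthases in both libraries, and with GSI Ptges2 was.

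**Figure D2:**
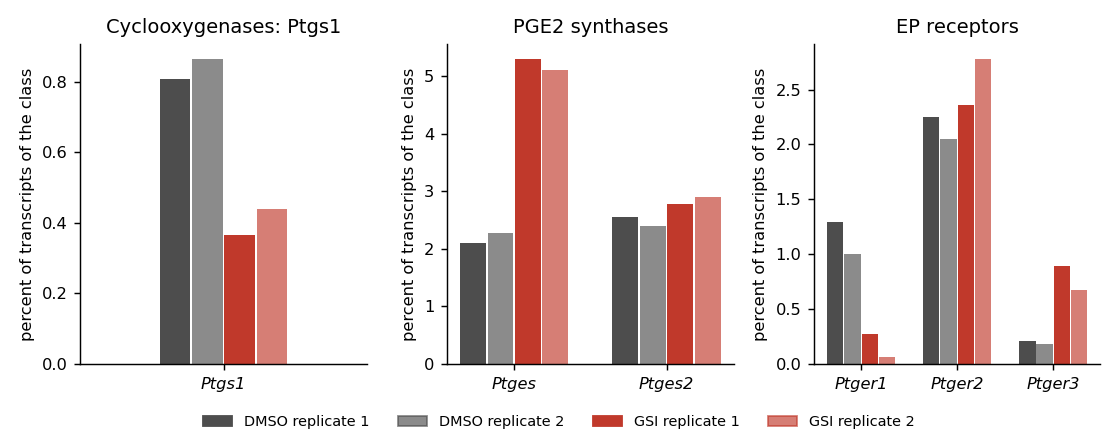
Shares of transcripts within 3 classes, per kilobase of exon, as percent of the class in each library. Bars are the DMSO (grey) and GSI (red) libraries. The panels leave out the dominant gene of each class (Ptgs2, Ptges3 and Ptger4, which make up the rest). The Ptges bars are higher and the Ptgs1 and Ptger1 bars lower in both GSI libraries.

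The other terminal synthases did not move together. Hpgds (ENSMUSG00000029919, chr6:65117293-65144908, minus strand), which makes prostaglandin D2, was at 171 and 156 CPM with DMSO and at 172 and 162 CPM with GSI. The groups overlapped, and the log2 fold change was 0.03 (SE 0.0721). Tbxas1 (ENSMUSG00000029925, chr6:38875404-39084585, plus strand), which makes thromboxane A2, was at 338 and 342 CPM with DMSO and at 230 and 242 CPM with GSI. Tbxas1 was therefore 1.44-fold lower with GSI, with a log2 fold change of -0.53 (SE 0.0696) and a range of -0.56 to -0.49 on leaving out 1 library. Per kilobase, Tbxas1 stood above Hpgds in both DMSO libraries, whereas with GSI the pair overlapped at means of 25.9 and 26.0 CPM per kilobase. That overlap depends on the exon lengths used, since in CPM Tbxas1 stood above Hpgds in every library.

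Mast cells also make prostaglandin D2 with Hpgds, and platelets also make thromboxane with Tbxas1 and Ptgs1. Of 7 mast cell markers 5 were at 0 in every library (Cpa3, Mcpt4, Tpsb2, Ms4a2 and Cma1), and the list summed to 3.32 and 3.05 CPM with DMSO and to 4.39 and 4.03 CPM with GSI. Of the other 2, Kit was called higher with GSI (log2 fold change 0.83, FDR 0.0233 by edgeR), and Hdc was not called (log2 fold change 0.30, FDR 0.138). The 6 markers of platelets and megakaryocytes summed to 0.674 CPM or less in every library. All 10 macrophage markers passed the filter on low counts, although Cd163 was under 3 counts in both GSI libraries, and their sum was 12295 and 12500 CPM with DMSO and 9495 and 10420 CPM with GSI, with 8 of the 10 called lower and 1 higher, against 21.9% and 19.0% of all genes. The part of this difference in the values of the prostaglandin genes and of the pathway lists was not tested, and in RNA from whole cultures fewer cells of a type and less RNA per cell cannot be told apart. Dendritic cell markers summed to 3.85 to 5.53 CPM, with Xcr1 called lower (log2 fold change -0.42, FDR 0.0175), and those of neutrophils, fibroblasts, B cells and T cells to at most 1.43 CPM per list.

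Hpgd (ENSMUSG00000031613, chr8:56294585-56321043, plus strand), the dehydrogenase that begins the inactivation of PGE2, differed most of the 10 genes. It was measured at 3.18 and 2.70 CPM with DMSO and at 0.393 and 0.344 CPM with GSI. The means were 2.94 ± 0.345 and 0.369 ± 0.0345 CPM (SD, n = 2). The edgeR fit put Hpgd 7.89-fold lower with GSI, at a log2 fold change of -2.98 (SE 0.238). Only 0.727% of all genes tested had a lower value, and leaving out 1 library gave -3.11 to -2.87. The gene was scarce throughout, with 137 and 153 counts under DMSO against 19 and 17 under GSI, all above the floor of 3 counts.

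Ptges and Hpgd thus stood at opposite ends of the 10 genes. The DMSO libraries held 1.56 and 1.99 Ptges counts for each Hpgd count, and the GSI libraries held 38.6 and 42.2. This ratio is formed within a library, so scaling between libraries does not enter it. No prostaglandin was measured in these libraries.

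Ptger4 (ENSMUSG00000039942, chr15:5206661-5244187, minus strand) encodes EP4. Its level was 291 and 328 CPM with DMSO and 266 and 299 CPM with GSI, so the groups overlapped, at a log2 fold change of -0.13 (SE 0.0785). It was called without GSI replicate 2, and also with the 16 columns kept apart, where runs of 1 library count as replicates. Ptger2 (ENSMUSG00000037759, chr14:44988195-45003820, plus strand) encodes EP2 and was at 5.30 and 5.43 CPM with DMSO and at 5.09 and 6.72 CPM with GSI. GSI replicate 1 was the lowest and GSI replicate 2 the highest of the 4 libraries, and the log2 fold change of 0.14 (SE 0.135) became -0.08 without GSI replicate 2.

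**Figure D3:**
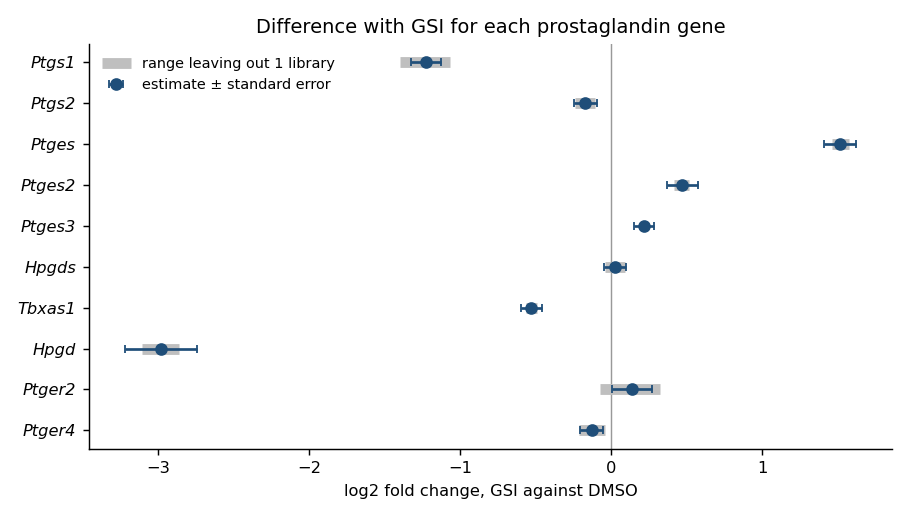
The log2 fold change of GSI against DMSO for each prostaglandin gene, with its standard error as whiskers and the range on leaving out 1 of the 4 libraries as a grey bar. Hpgd lies at -2.98 and Ptges at 1.52, and only the bars of Hpgds and Ptger2 cross 0.

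Among the 4 EP receptors, Ptger4 made up 96.3% and 96.8% of transcripts per kilobase with DMSO and 96.5% with GSI in both libraries. The scarce Ptger1 and Ptger3, which were not among the 10 genes, changed in opposite directions. Ptger3 (EP3, which lowers cAMP) rose from 0.535 and 0.529 CPM with DMSO to 2.11 and 1.78 CPM with GSI, at a log2 fold change of 1.87 (SE 0.241, FDR 3.14e-06 by edgeR). Its 23 and 30 counts with DMSO became 102 and 88 with GSI. Ptger1 (EP1, which signals through calcium) fell from 3.21 and 2.78 CPM to 0.621 and 0.162 CPM, at a log2 fold change of -2.93 (SE 0.302, FDR 1.62e-07), and leaving out 1 library gave -4.18 to -2.26, the lowest without GSI replicate 1. Most of its exon bases are also annotated as exon on the other strand, so its count and its fold change are uncertain if strand was not used in counting.

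The order of the 10 genes per kilobase of exon spanned 783-fold with DMSO and 3281-fold with GSI. With DMSO, Ptgs2 at 808 CPM per kilobase was followed by Ptges3 (57.4), Ptger4 (46.5), Tbxas1 (37.4), Hpgds (25.5) and Ptgs1 (6.81), and then by Hpgd (1.75), Ptges2 (1.49), Ptges (1.32) and Ptger2 (1.03). All 9 pairs of neighbours in this order were apart in both libraries. With GSI, Ptges moved up to sixth at 3.78 CPM per kilobase, above Ptgs1 at 2.91, and Hpgd moved from seventh to last at 0.219. In this order 8 of 9 pairs of neighbours did not overlap, Hpgds and Tbxas1 being the exception. The move of Hpgd depends on the division by exon length. In CPM, Hpgd was the lowest of the 10 genes already with DMSO (mean 2.94), and also with GSI (mean 0.369).

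Exons of 4 of the 10 genes share bases with a gene annotated on the other strand. The shared stretch was 148 bases in Ptgs1, 144 in Tbxas1, 390 in Ptger2 and 1097 in Ptger4. In Ptgs1 and Tbxas1 the partner had at most 4 counts in any library, against at least 484 counts of Ptgs1 and 11114 of Tbxas1. Ptger4 shares 82 bases with Ttc33, which had 867 to 1186 counts per library. The other 6 genes, Ptges and Hpgd included, share no exon base with such a gene. In a fit restricted to genes without such partners, added after seeing the data, 4 of these 6 were called, and so were 39.8% of the genes in that fit.

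Around these 10 genes, 100 further genes of the pathway were grouped in 7 lists, and 74 of them passed the filter. At an FDR under 0.05, 30 fell and 7 rose with GSI, 37 of the 74, where 40.8% of all genes were called, 21.9% lower and 19.0% higher. The median log2 fold change of the 74 was -0.15, against 0.01 over all genes. The lists were assembled with earlier results of these data known. Of the 26 genes not tested, 22 were at 3 counts or fewer in every library, and 7 of those were at 0 throughout, among them the prostaglandin D synthase Ptgds and the prostaglandin D2 receptor Ptgdr, both named after their values were seen.

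Of 11 tested genes for the release or handling of arachidonic acid, 3 were called lower and 1 higher. This is a share of 36.4% against 40.8% of all genes, and their median log2 fold change was -0.03. Daglb, a diacylglycerol lipase that feeds arachidonate release in macrophages, fell from 47.4 and 49.5 CPM to 23.6 and 26.3 CPM (log2 fold change -0.96, SE 0.0797, FDR 8.49e-09). Its exons share 2309 of 9567 bases with Rac1 on the other strand, at 370 to 431 CPM. The count of Daglb is therefore uncertain if strand was not used in counting. Acsl4, which couples arachidonate to coenzyme A, fell from 155 and 153 CPM to 113 and 118 CPM (log2 fold change -0.41, FDR 6.58e-05). The secreted phospholipase gene Pla2g12a rose by 0.33 on the log2 scale (FDR 0.0276), a call that was lost under 3 alternatives.

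Of the 5 remaining synthases 2 could be tested, and 1 was called, where 40.8% of all genes were. This was Fam213b, which makes prostaglandin F2α (log2 fold change 0.31, FDR 0.0485), and the call was lost under 7 of its 11 alternatives. In the list of other breakdown and transport genes, 1 of 7 was called, or 14.3% against 40.8% of all genes. Abcc4, a pump that exports prostaglandins, fell from 25.1 and 25.4 CPM with DMSO to 16.3 and 16.9 CPM with GSI (log2 fold change -0.61, SE 0.0830, FDR 6.49e-06). The median log2 fold change was 0.07 in both lists, over 2 and 7 genes.

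The leukotriene branch draws on the same arachidonic acid, and 5 of its 12 tested genes fell and 1 rose, against 21.9% of all genes lower and 19.0% higher. The median log2 fold change of the list was -0.25. Alox5, the lipoxygenase that starts leukotriene synthesis, fell from 1.53 and 1.80 CPM to 0.455 and 0.709 CPM (log2 fold change -1.52, SE 0.257, FDR 7.96e-05). Alox5ap, which presents arachidonate to that enzyme, was far more abundant and fell from 306 ± 9.94 to 193 ± 6.39 CPM (log2 fold change -0.66, FDR 2.4e-07). Cyp4f18, which inactivates leukotriene B4, fell as well, from 13.0 ± 0.510 to 6.74 ± 1.78 CPM (log2 fold change -0.95, FDR 7e-06). Exons of Cyp4f18 share 181 of 1855 bases with Zfp961 on the other strand, at 4.78 to 5.90 CPM. The count of Cyp4f18 is therefore uncertain if strand was not used in counting. The groups did not overlap in any of the 12 genes, called or not, and in 70.6% of all genes.

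Of 27 tested genes listed for cAMP signaling below EP2 and EP4, the largest of the lists, 17 fell and 1 rose, at a median log2 fold change of -0.29. That is 66.7% called, the same share as in the 3 other prostanoid receptors, against 40.8% of all genes, of which 21.9% were called lower. The macrophage markers were lower in the same libraries (8 of 10 called), and their part in this list or in the leukotriene list was not tested. The phosphodiesterase gene Pde3b, whose product breaks cAMP down, fell from 15.3 and 14.1 CPM to 4.61 and 5.85 CPM (log2 fold change -1.49, SE 0.116, FDR 3.59e-09). Adcy9, an adenylyl cyclase that makes cAMP, fell from 6.96 ± 1.14 to 3.29 ± 0.529 CPM (log2 fold change -1.07, FDR 6.93e-06). The genes called lower thus include enzymes that make cAMP and enzymes that remove it. The gene that rose was Rapgef3, a cAMP-activated exchange factor for Rap proteins, from 0.681 ± 0.00945 to 1.59 ± 0.154 CPM (log2 fold change 1.22, FDR 0.000347).

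Of 13 regulators of Ptgs2 and Ptges, 3 fell and 2 rose, a share of 38.5% against 40.8% of all genes. Egr1, a zinc finger factor known to act on the Ptges promoter, rose from 733 and 761 CPM to 1250 and 1077 CPM (log2 fold change 0.64, SE 0.0801, FDR 2.17e-06). Cebpd rose by 0.47 on the log2 scale (FDR 0.0122), which was lost under 3 alternatives. Its exons share 562 of 3746 bases with Spidr on the other strand, at 13.1 to 14.2 CPM, so its count is uncertain if strand was not used in counting. Celf2, an RNA-binding protein known to bind Ptgs2 mRNA, fell from 205 and 184 CPM to 139 CPM in both GSI libraries (log2 fold change -0.49, FDR 1.72e-05).

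**Figure D4:**
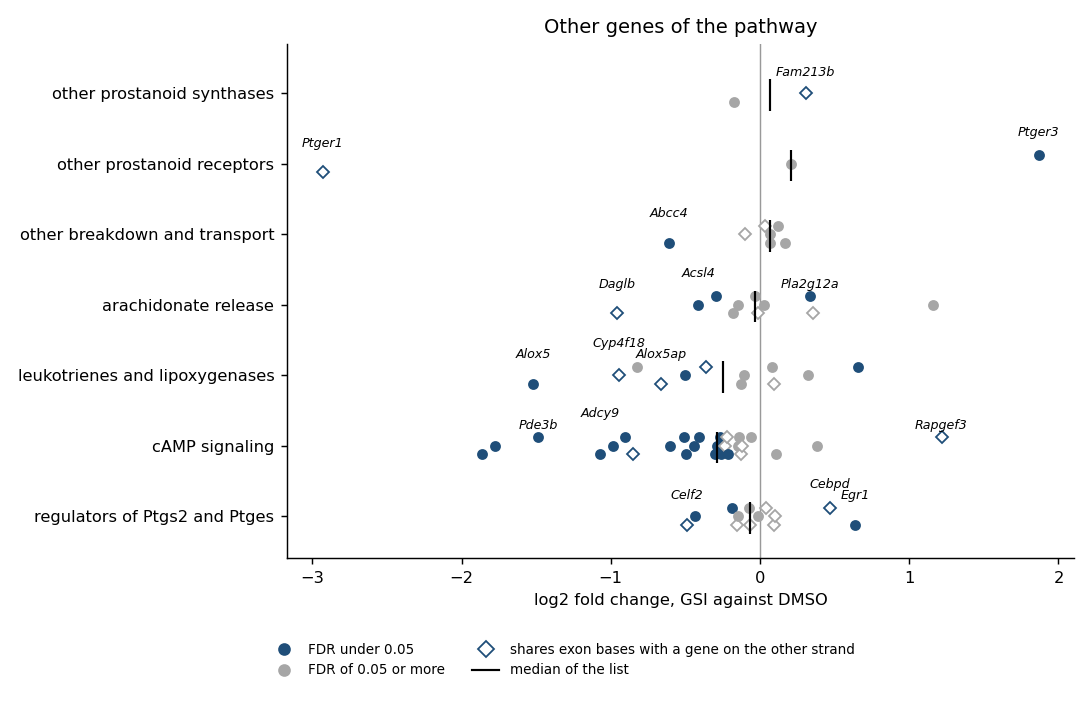
The log2 fold change of GSI against DMSO for the 74 tested genes of the other pathway lists, 1 row per list. Blue marks an FDR under 0.05 and grey the rest, diamonds are genes that share exon bases with a gene on the other strand, and black lines are list medians. Most blue points of the cAMP row lie below 0, and Ptger1 and Ptger3 lie at -2.93 and 1.87.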

How the data were processed

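Gene counts were analysed for 16 deposited columns, matched to samples by title. The authors prepared strand-specific libraries with a TruSeq stranded mRNA kit, used an Illumina NextSeq instrument, removed adapters (Trimmomatic), aligned the reads to mm10 with STAR (2.5.0a in the submitters' processing notes, which also name mm9) and deposited the raw counts per gene from HTSeq, unnormalized. The HTSeq mode and strand setting are not given in the sources used here. The study's methods have GSI added overnight before activation, while descriptions of its other experiments give a shorter pretreatment. The methods name Entrez Gene, while the table lists Ensembl IDs, of which 98.8% were found in GENCODE M21.

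The last number of a title was taken as a sequencing run, which the labels do not define. The 4 columns of a replicate were summed on that reading. For the 10 genes in the 4 libraries, the columns of a replicate differed by a mean chi-square of 1.12 per degree of freedom. By chi-square test, 5 of 40 comparisons had an unadjusted p under 0.05, and 0 did after Benjamini-Hochberg adjustment. This check covers only the 10 genes, did not decide the sum and cannot show that the columns are runs of 1 library. A floor of 3 counts is 0.0527 to 0.0703 CPM and covers counting error only. Differences were fitted with edgeR 4.0.16 (R 4.3.3; filterByExpr, TMM, glmQLFit, glmQLFTest, group as the only factor), with FDR by Benjamini-Hochberg over 13211 genes, after a test on simulated data. The biological coefficient of variation was 0.0579. Per-kilobase values divide CPM by the union of GENCODE exons. DESeq2 1.42.0 served as an alternative.

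The 10 genes and all lists were chosen with earlier results of these data known. From each list of other genes, up to 3 are named: those with the largest absolute log2 fold change among genes called, with groups that do not overlap and a mean of at least 1 CPM. Same-numbered replicates were not treated as pairs: with 2 pairs, the correlation of their deviations from the group means was 0.15. Some items are not reported here.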

Additional observations from a re-analysis of the deposited data

How the results depend on the processing

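The calls were recomputed under 14 alternatives. Requiring a change beyond 1.5-fold (glmTreat) left 839 of all genes, 3 of the 10 prostaglandin genes (Ptgs1, Ptges and Hpgd) and 11 of the other pathway genes. An absolute log2 fold change above 1.5 beside the FDR left 385, 2 (Ptges and Hpgd) and 5. Testing only genes without exons on the other strand, chosen after seeing the data, gave 3573 calls among 8969 genes, a smaller set, with 4 of the 6 prostaglandin genes that remained. Leaving out 1 library gave 4162 to 4978 calls over all genes, 5 to 8 among the prostaglandin genes and 29 to 36 among the other pathway genes. DESeq2 called 4222 genes.

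With the replicate block, 6444 genes, 7 prostaglandin genes (Ptgs2 added) and 40 other pathway genes were called, against 5392, 6 and 37 without it. The numbers are only shared labels here, since the labels do not tie a number to a mouse, day or batch. Under RLE size factors, without normalization factors, and under either filter, the same 6 prostaglandin genes were called. The sign of the log2 fold change changed for Hpgds and Ptger2 only, neither of them called. Of the 16 other genes named, 13 were called under every alternative that tested them, apart from the 2 that also ask for a minimum fold change, and none reversed. Genes with exons on the other strand were not in the fit that leaves such genes out, and Ptger1 was also not in the fit with at least 10 counts in every library.

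Depth limits Hpgd, Ptger1 and Alox5, with at most 35 counts in each GSI library, and Ptger3 and Rapgef3, with at most 39 counts in each DMSO library.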
